A study of Mus musculus with 9 samples.

Results

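The autophagosome formation machinery was described in 3 immortalized mouse striatal cell lines as 36 genes chosen by symbol from the 36410 genes of the RNA-seq count table. All 36 were listed and all 36 passed the filter on low counts that left 13508 genes for testing. The control line (STHdhQ7/Q7) carries knock-in huntingtin alleles with 7 glutamines in exon 1 of each copy. The HD-het line (STHdhQ7/Q111) carries 1 allele with 7 and 1 with 111 glutamines, and the HD-homo line (STHdhQ111/Q111) carries 111 in both copies. All 3 lines are of the C57/BL6 background, were grown from knock-in mouse embryos and gave 3 libraries each of poly(A) RNA. With 1 line per genotype, effects of the genotype cannot be told apart from other differences between the lines. The labels do not say whether the 3 libraries of a line came from separate cultures, and the p-values then measure only the spread between these libraries, which may be technical.

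Autophagy encloses cytoplasm in a new membrane sac, the autophagosome, and delivers it to the lysosome. A protein kinase complex starts the process, a lipid kinase complex marks the membrane, lipid transfer and scrambling proteins feed its growth, a pair of ubiquitin-like conjugation systems attach LC3 and GABARAP proteins to it, and SNARE and tether proteins fuse the closed vesicle with lysosomes. The members were therefore ordered as initiation (5 genes), nucleation (8 genes), membrane supply and expansion (10 genes), conjugation (7 genes) and fusion (6 genes). Huntingtin itself has been described as a scaffold in selective autophagy, and autophagy has long been studied in Huntington disease.

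Total counts ran from 29507665 to 41197931 per library. Htt, the knock-in gene, stood at 104, 103 and 93.0 normalised CPM (counts scaled to the TMM-adjusted total of each library) in control libraries, 61.8, 64.0 and 61.1 CPM in HD-het libraries and 19.7, 21.7 and 19.2 CPM in HD-homo libraries. The counts do not separate the alleles, so they do not check the repeat length. Most markers of striatal projection neurons were nearly absent: Drd1 had no count in any of the 9 libraries, and of 10 such markers only 1 or 2 had a line mean of at least 1 CPM. The exceptions were Foxp1, with means of 93.8 CPM in control, 114 CPM in HD-het and 168 CPM in HD-homo cells, and Penk. Penk had means of 1.28, 0.470 and 2.42 CPM in the same order. The summed level of 4 neural progenitor markers, led by Nes, was 666 to 708 CPM in control, 957 to 997 CPM in HD-het and 31.8 to 44.9 CPM in HD-homo libraries. In HD-het cells Nes, Pax6 and Msi1 were higher than in control, and Sox2 was lower (means of 128 and 82.9 CPM, adjusted p = 2.03e-05). In HD-homo cells all 4 were lower than in control. The summed level of 7 mesenchymal markers was 2565 to 3469 CPM in control, 7860 to 9099 CPM in HD-het and 6188 to 6716 CPM in HD-homo libraries. That sum was carried by Col1a1, with means of 2465, 7097 and 4234 CPM in the same order. Col1a2 (73.4, 3.15 and 1494 CPM) and Dcn (4.06, 1.65 and 21.5 CPM) were instead lower in HD-het cells, against control (adjusted p = 1.33e-10 and 0.00239). The lines did not overlap on either list, and the part of these markers in the results for the 36 genes was not tested. In such bulk libraries fewer cells of a type and less RNA per cell cannot be told apart.

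Against control cells, 22 of the 36 genes passed the threshold in HD-homo cells (adjusted p under 0.05, edgeR's quasi-likelihood test, adjusted over all tested genes), 10 higher and 12 lower. Of all 13508 genes, 58.6% passed in that comparison, 29.6% higher and 28.9% lower. In HD-het cells 24 of the 36 genes passed, 16 higher and 8 lower, where 65.1% of all genes passed, 33.8% higher and 31.4% lower. Between HD-homo and HD-het cells 24 passed, 10 higher and 14 lower in HD-homo cells, where 71.6% of all genes passed, 36% higher and 35.6% lower. So the share of members that passed was near that of all genes in each comparison. Without control replicate 1 the 12 lower genes in HD-homo cells became 7. The share of all genes that passed in either direction in that comparison became 49.9%, and 50.8% of those were higher. The changes were mostly small. With a fold of at least 1.5 also required, 4 members remained in HD-homo against control, all higher, against 28.8% of all genes in either direction. That rule left 7 in HD-het against control, 6 higher and 1 lower (33.1% of all genes in either direction). It left 8 between the HD lines, 3 higher and 5 lower in HD-homo cells (40.7% of all genes in either direction). The median size of the log2 fold change over the 36 genes was 0.21 in HD-homo against control, 0.31 in HD-het against control and 0.30 between the HD lines, and over all tested genes it was 0.32, 0.40 and 0.46. The 3 comparisons share lines, so each gene's values are given side by side below.

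**Figure D1:**
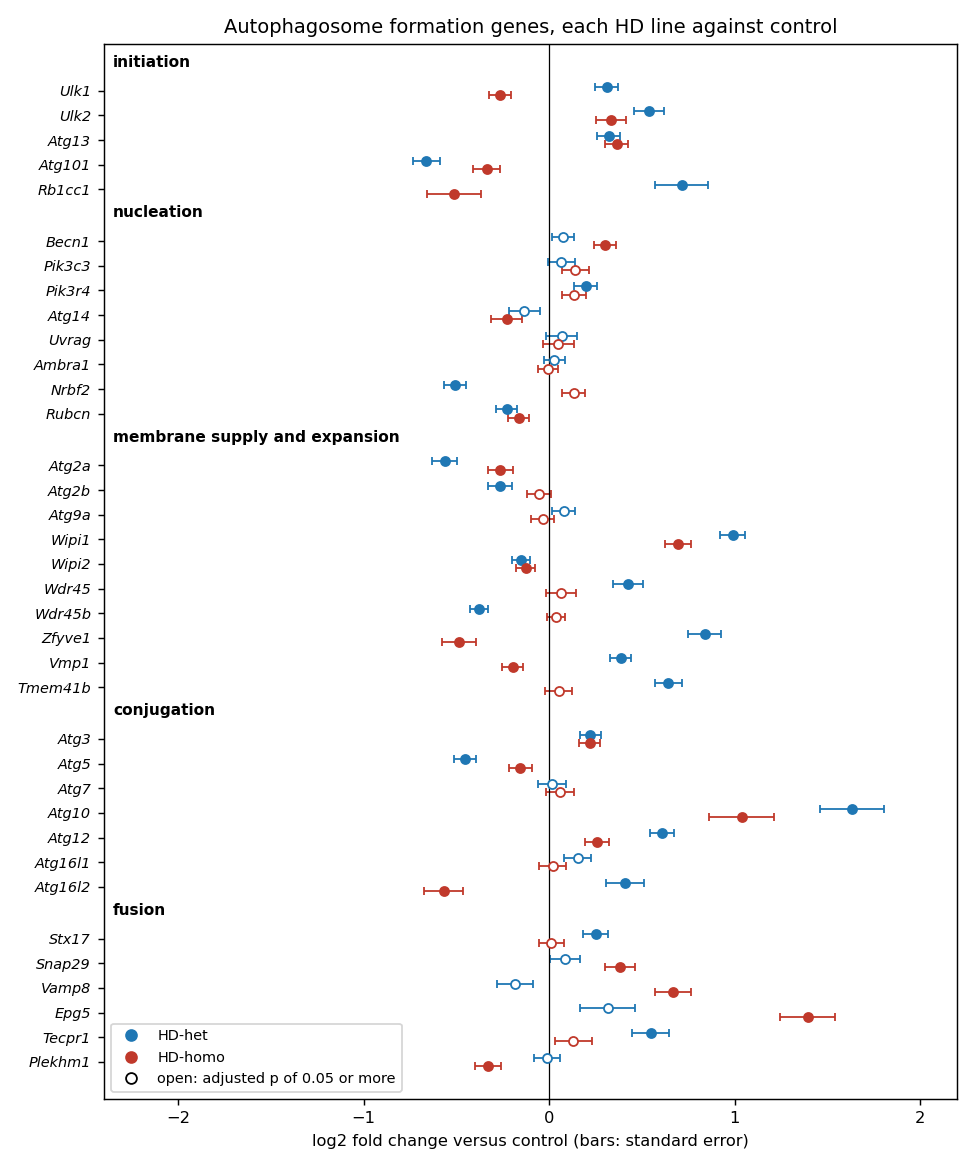
Log2 fold change of each of the 36 genes against control cells in HD-het (blue) and HD-homo (red) cells, by step, with standard errors from the edgeR fit; filled points had an adjusted p under 0.05. All 5 initiation genes were past the threshold in both HD lines, while Uvrag, Ambra1 and Atg7 lay near 0 in both. Of all tested genes 65.1% were past it in HD-het and 58.6% in HD-homo cells.

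By step, all 5 initiation genes passed in both comparisons with control. Of the 8 nucleation genes 3 passed in HD-homo and 3 in HD-het cells against control. Among the 10 expansion genes 5 passed in HD-homo and 9 in HD-het cells, and of the 7 conjugation genes 5 passed in each. For fusion, 4 of 6 genes passed in HD-homo and 2 of 6 in HD-het cells against control, and all 6 passed between the HD lines. Of all tested genes 58.6% passed in HD-homo against control, 65.1% in HD-het against control and 71.6% between the HD lines. With 5 to 10 genes per step, differences between steps were not tested. Pik3c3, Uvrag, Ambra1, Atg9a, Atg7 and Atg16l1 passed in none of the 3 comparisons.

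Levels were compared between genes per length, as CPM divided by the length in kb of the longest annotated coding transcript. Vmp1, a lipid scramblase of the endoplasmic reticulum, had the highest such level in every line, with a mean over 3 libraries of 89.9 ± 3.06 (SD) CPM per kb in control, 117 in HD-het and 78.4 in HD-homo cells. Wdr45b, a phosphoinositide-binding beta-propeller protein, came next with 53.9 ± 0.650 CPM per kb in control cells. This order rests on the transcript chosen. The longest coding transcript has 2787 bases for Vmp1 and 2321 bases for Wdr45b, and the median 1556.5 and 702 bases. With the median, Vmp1 no longer leads in control cells. At the low end Atg10, the conjugating enzyme that joins ATG12 to ATG5, had 0.745 ± 0.143 CPM per kb in control cells and was lowest in all 3 lines. Epg5, a tether for fusion, was 34th of the 36 by level per length in control cells and 21st in HD-homo cells. Wipi1 moved from 28th in control to 19th in HD-het cells.

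**Figure D2:**
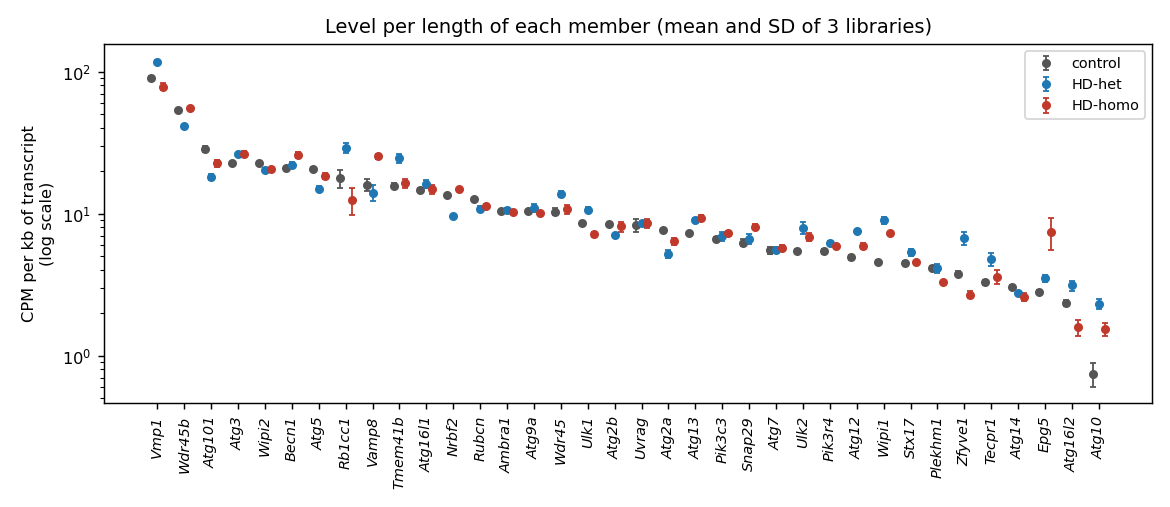
Level per length of each gene (CPM per kb of its longest coding transcript, log scale) in control (grey), HD-het (blue) and HD-homo (red) cells; points are means and bars are SDs of 3 libraries. With this choice of length, Vmp1 and Wdr45b are highest and Atg10 is lowest in each line, and Epg5 stands out in HD-homo cells.

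Promoter windows from RefSeq (GRCm38.p6, 250 bases before to 50 bases after an annotated start) were found for 29 of the 36 genes, in 33 windows. TFEB and related factors bind the E-box CACGTG and its extended form TCACGTGA, FOXO factors bind GTAAACA, and ATF4 with its partners binds TGATGNAA. On either strand, CACGTG was present in 6 of 33 windows (18.2%) against 9.69% of the 13297 windows of tested genes, and TCACGTGA, which contains CACGTG, in 2 of 33 (6.06%) against 1.74%. The GTAAACA and TGATGNAA motifs were in 0 of the 33 windows, against 2.55% and 2.29% of the windows of tested genes. A match is a description of letters and not a measured binding site. The windows with TCACGTGA belong to Nrbf2 and Atg3, and they are printed with the CACGTG core in capitals. They are set beside windows of 3 genes with larger differences between the lines, Wipi1, Zfyve1 and Vamp8, which held none of the 4 motifs and have no capitals. All are 5′ to 3′ on the gene's strand. The Atg3 window is on the plus strand and the others are on the minus strand.
Nrbf2, chr10:67285232-67285531: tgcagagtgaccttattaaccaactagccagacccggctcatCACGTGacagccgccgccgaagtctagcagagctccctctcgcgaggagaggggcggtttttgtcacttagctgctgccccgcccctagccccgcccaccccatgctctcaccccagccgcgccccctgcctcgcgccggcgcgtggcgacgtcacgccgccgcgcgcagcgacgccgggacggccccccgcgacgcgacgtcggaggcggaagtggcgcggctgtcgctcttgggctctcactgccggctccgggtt
Atg3, chr16:45158579-45158878: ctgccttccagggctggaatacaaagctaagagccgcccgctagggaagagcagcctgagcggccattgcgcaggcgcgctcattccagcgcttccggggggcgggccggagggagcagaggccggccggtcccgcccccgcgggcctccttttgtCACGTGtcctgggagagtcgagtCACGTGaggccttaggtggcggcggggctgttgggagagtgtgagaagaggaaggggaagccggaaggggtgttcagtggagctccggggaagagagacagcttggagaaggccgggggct
Wipi1, chr11:109611340-109611639: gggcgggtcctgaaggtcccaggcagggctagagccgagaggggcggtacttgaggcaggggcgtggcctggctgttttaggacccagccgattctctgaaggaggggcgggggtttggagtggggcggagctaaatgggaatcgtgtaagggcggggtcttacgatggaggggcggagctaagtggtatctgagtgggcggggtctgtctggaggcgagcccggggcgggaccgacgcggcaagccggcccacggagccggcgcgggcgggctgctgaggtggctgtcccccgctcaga
Zfyve1, chr12:83597173-83597472: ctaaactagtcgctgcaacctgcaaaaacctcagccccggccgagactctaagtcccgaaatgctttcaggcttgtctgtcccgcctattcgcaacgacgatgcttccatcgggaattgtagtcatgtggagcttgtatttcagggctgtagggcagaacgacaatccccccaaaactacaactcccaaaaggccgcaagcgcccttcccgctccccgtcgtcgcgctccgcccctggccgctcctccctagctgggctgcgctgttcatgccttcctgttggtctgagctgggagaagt
Vamp8, chr6:72390618-72390917: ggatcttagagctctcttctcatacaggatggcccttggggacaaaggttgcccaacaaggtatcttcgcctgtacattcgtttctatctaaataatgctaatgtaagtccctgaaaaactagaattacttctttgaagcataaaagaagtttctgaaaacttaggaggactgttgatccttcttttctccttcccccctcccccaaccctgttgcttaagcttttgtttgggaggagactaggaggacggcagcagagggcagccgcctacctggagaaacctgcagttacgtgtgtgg
The Nrbf2 core begins 208 bases before the start, and the pair in Atg3 begins 94 and 71 bases before it. The 5 windows also differ in base composition. Nrbf2 has 71.0% G and C with 40 CpG, Wipi1 69.0% with 25 and Atg3 67.3% with 23, whereas Zfyve1 has 58.0% with 20 and Vamp8 46.7% with 5. Over the 33 windows the median was 61.7% G and C, against 60.7% for windows of tested genes. The other windows with CACGTG belonged to Atg14, Rubcn, Atg5 and Atg7, so 6 genes held it in a window. Those of Atg7 (chr6:114670846-114671145), Rubcn (chr16:32868317-32868616) and Atg14 (chr14:47568385-47568684) lie within the annotated gene and not at its outer start. The Rubcn window at the outer start (chr16:32877680-32877979) held none. Against control, Atg3 was higher in both HD lines, Atg5 and Rubcn were lower in both, Nrbf2 was lower in HD-het cells, Atg14 was lower in HD-homo cells, and Atg7 passed in neither.

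Initiation genes moved in different directions within 1 complex. ULK1 and ULK2 are the kinases, and ATG13, ATG101 and RB1CC1 (also called FIP200) hold the complex together. Rb1cc1 (chromosome 1, 6206197 to 6276648, GRCm38) stood at 132, 155 and 117 CPM in control, 205, 239 and 219 CPM in HD-het and 72.8, 113 and 97.1 CPM in HD-homo libraries. The 3 lines did not overlap, but the highest HD-homo library lay close to the lowest control library. The log2 fold change against control was 0.71 ± 0.14 (SE) in HD-het cells (adjusted p = 0.00107) and -0.51 ± 0.14 in HD-homo cells (adjusted p = 0.0101), and HD-homo lay below HD-het cells by -1.23 ± 0.15 (adjusted p = 1.56e-05). Ulk1 showed the same order at smaller size, with 45.4, 44.5 and 44.2 CPM in control, 57.0, 56.3 and 52.9 CPM in HD-het and 37.7, 38.6 and 35.3 CPM in HD-homo libraries. Its log2 fold change was 0.31 ± 0.060 in HD-het (adjusted p = 0.000817) and -0.27 ± 0.060 in HD-homo cells (adjusted p = 0.00280). Ulk2, the related kinase, was higher in both, by 0.54 ± 0.081 in HD-het and 0.33 ± 0.081 in HD-homo cells, as was Atg13, by 0.32 ± 0.062 and 0.36 ± 0.062. The Ulk2 difference between the HD lines, -0.20 ± 0.080, passed with adjusted p = 0.0378, but the libraries overlapped. This call was lost under 9 of 17 alternatives, with an adjusted p of up to 0.144. With only the 2 lines in the fit the adjusted p was 0.0667.

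Atg101 (chromosome 15, 101284272 to 101290945, GRCm38), the partner of ATG13, was the initiation gene that was lower in both HD lines. It stood at 38.1, 36.8 and 34.5 CPM in control, 24.3, 22.1 and 22.8 CPM in HD-het and 30.7, 28.5 and 27.5 CPM in HD-homo libraries. No library of one line overlapped another line. Against control the log2 fold change was -0.66 ± 0.072 in HD-het (adjusted p = 1.17e-05) and -0.34 ± 0.071 in HD-homo cells (adjusted p = 0.00183). HD-homo cells were higher than HD-het cells by 0.32 ± 0.072 (adjusted p = 0.00177).

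Rb1cc1, Ulk1, Zfyve1, Vmp1 and Atg16l2 were higher in HD-het and lower in HD-homo cells, past the threshold in all 3 comparisons, so 5 of the 36 genes had this pattern. Among all tested genes 8.18% had it, and 6.34% had the opposite pattern, which 0 of the 36 showed.

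**Figure D3:**
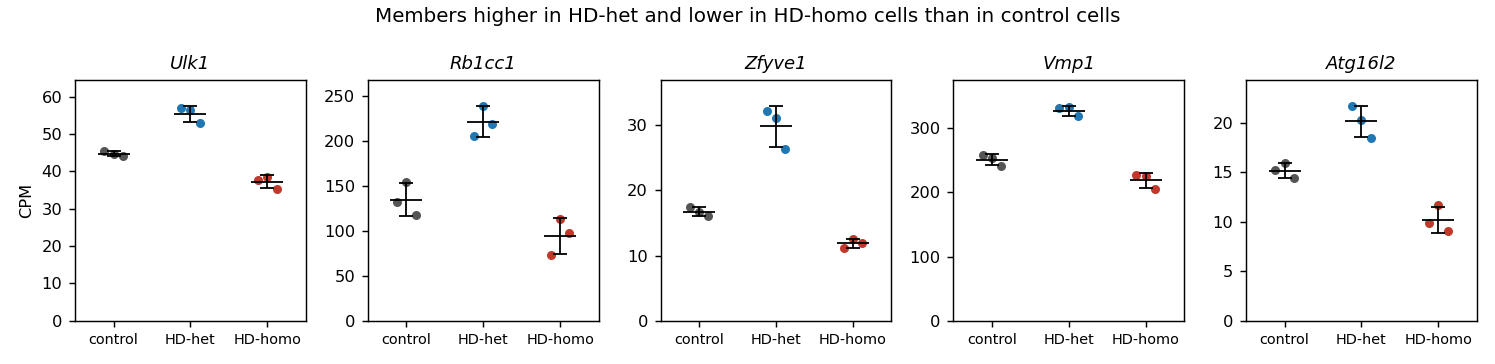
Level in CPM of the 5 genes whose HD-het libraries lay above and whose HD-homo libraries lay below those of control cells, each past the threshold in all 3 comparisons; points are libraries, bars are the mean and SD of 3 libraries, and axes start at 0. Rb1cc1 and Zfyve1 have the widest distance between the HD lines.

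Most nucleation genes showed small or no detectable differences. PIK3C3 is the lipid kinase, PIK3R4 and BECN1 are its partners, ATG14, UVRAG, AMBRA1 and NRBF2 adapt the complex, and RUBCN restrains it. Becn1 was 0.30 ± 0.059 (log2) higher in HD-homo cells than control (adjusted p = 0.00104), with 91.6, 92.6 and 90.8 CPM in control and 116, 117 and 106 CPM in HD-homo libraries. In HD-het cells it differed from control by 0.07 ± 0.059 and did not pass. For Pik3c3 the differences from control were 0.06 ± 0.073 in HD-het and 0.14 ± 0.073 in HD-homo cells. For Ambra1 they were 0.03 ± 0.055 and -0.01 ± 0.055, with 95% intervals from -0.09 to 0.15 and from -0.13 to 0.11, and for Uvrag 0.07 ± 0.083 and 0.05 ± 0.083. Pik3r4 was higher in HD-het cells by 0.20 ± 0.063 (adjusted p = 0.0167), which no longer passed without HD-het replicate 1 (adjusted p = 0.0721), control replicate 2 (0.0600) or control replicate 3 (0.0606). Rubcn was lower in both lines, by -0.23 ± 0.057 in HD-het and -0.16 ± 0.056 in HD-homo cells, and the second call did not hold without control replicate 1 (adjusted p = 0.0788), control replicate 3 (0.0751), HD-homo replicate 1 (0.0597) or HD-homo replicate 2 (0.0764). Atg14 was lower in HD-homo cells by -0.23 ± 0.084 (adjusted p = 0.0357), and this was lost under 10 of 17 alternatives, with an adjusted p of up to 0.120.

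Nrbf2 (chromosome 10, 67266689 to 67285305, GRCm38) was the nucleation gene with the largest difference. It stood at 24.3, 24.9 and 24.6 CPM in control, 17.7, 17.4 and 16.9 CPM in HD-het and 27.0, 26.8 and 27.0 CPM in HD-homo libraries. The HD-het libraries were all below the rest. On the log2 scale the difference was -0.51 ± 0.061 in HD-het cells against control (adjusted p = 2.45e-05), 0.13 ± 0.060 in HD-homo cells against control (adjusted p = 0.0796) and 0.64 ± 0.060 in HD-homo against HD-het cells (adjusted p = 2.60e-06). Of the 50-base words in its longest coding transcript 69.4% also occur in other annotated genes, chiefly Gm6740 and Gm6755, so reads may be shared and its counts are uncertain.

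Genes of membrane supply and expansion moved in both directions. ATG9A is the scramblase of the seed vesicles, ATG2A and ATG2B transfer lipid, WIPI1, WIPI2, WDR45 and WDR45B bind the marked membrane, ZFYVE1 (DFCP1) sits at the omegasome, and VMP1 and TMEM41B are scramblases of the endoplasmic reticulum. Wipi1 (chromosome 11, 109573331 to 109611967, GRCm38) was higher in both HD lines, with 15.7, 14.7 and 15.05 CPM in control, 31.6, 30.03 and 28.4 CPM in HD-het and 24.8, 24.0 and 24.7 CPM in HD-homo libraries. The lowest HD library was above the highest control library. The mean was 1.98-fold that of control in HD-het cells (log2 0.99 ± 0.069, adjusted p = 4.11e-07) and 1.62-fold in HD-homo cells (0.69 ± 0.069, adjusted p = 5.85e-06). Wipi2, which recruits ATG16L1, was instead slightly lower, by -0.15 ± 0.051 in HD-het and -0.13 ± 0.050 in HD-homo cells. Both Wipi2 calls were near the threshold (adjusted p = 0.0206 and 0.0488). The HD-homo call was lost under 12 of 17 alternatives, and the HD-het call without control replicate 1 (adjusted p = 0.0659), control replicate 3 (0.0624) or HD-het replicate 3 (0.0653).

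Zfyve1 (chromosome 12, 83546558 to 83597222, GRCm38) had the largest difference between the HD lines of the 36 genes. Its level was 17.4, 16.7 and 16.0 CPM in control, 32.2, 31.0 and 26.3 CPM in HD-het and 11.2, 12.5 and 11.9 CPM in HD-homo libraries. The lines were fully separated. Against control the log2 fold change was 0.84 ± 0.089 in HD-het (adjusted p = 9.80e-06) and -0.49 ± 0.092 in HD-homo cells (adjusted p = 0.000862), and HD-homo lay below HD-het cells by -1.33 ± 0.091 (adjusted p = 1.76e-07). Vmp1 (chromosome 11, 86583865 to 86683836, GRCm38) followed the same order, with 257, 253 and 241 CPM in control, 331, 332 and 318 CPM in HD-het and 226, 225 and 205 CPM in HD-homo libraries. Its log2 fold change was 0.38 ± 0.057 in HD-het (adjusted p = 0.000115) and -0.20 ± 0.057 in HD-homo cells (adjusted p = 0.0113), and the second was lost without control replicate 1 (adjusted p = 0.0530). The annotation places Mir21a on the same strand within its exons.

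Tmem41b (chromosome 7, 109972187 to 109986929, GRCm38) was higher in HD-het cells than in the other lines. The values were 58.6, 59.2 and 63.7 CPM in control, 94.9, 101 and 87.5 CPM in HD-het and 57.5, 65.9 and 64.7 CPM in HD-homo libraries. Control and HD-homo libraries overlapped, and both lay below every HD-het library. HD-het was above control by 0.64 ± 0.073 on the log2 scale (adjusted p = 1.69e-05), and HD-homo differed from control by 0.05 ± 0.073 (adjusted p = 0.566). Wdr45 was also higher in HD-het cells alone against control, by 0.42 ± 0.081, and its relative Wdr45b was lower there, by -0.38 ± 0.047, while in HD-homo cells these differed from control by 0.06 ± 0.082 and 0.04 ± 0.047. In both cases the difference between the HD lines itself passed, at -0.36 ± 0.081 for Wdr45 (adjusted p = 0.00189) and 0.41 ± 0.047 for Wdr45b (adjusted p = 1.11e-05). Atg2a was lower in both lines, by -0.56 ± 0.069 in HD-het and -0.26 ± 0.068 in HD-homo cells, and Atg2b by -0.26 ± 0.064 in HD-het cells, with -0.05 ± 0.064 in HD-homo cells. Atg9a differed from control by 0.08 ± 0.062 in HD-het and -0.03 ± 0.062 in HD-homo cells.

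Conjugation genes included the largest fold among those that differed from control in HD-het cells. ATG7 is the activating enzyme, ATG3 and ATG10 are the conjugating enzymes, and ATG12, ATG5 and ATG16L1 form the complex that directs LC3 to the membrane. Atg10 (chromosome 13, 90935356 to 91223968, GRCm38) stood at 1.40, 1.19 and 0.947 CPM in control, 3.64, 3.99 and 3.38 CPM in HD-het and 2.24, 2.70 and 2.33 CPM in HD-homo libraries. The lines did not overlap, and the control values rested on 45, 40 and 28 counts. The log2 fold change was 1.63 ± 0.17 in HD-het (adjusted p = 9.40e-06) and 1.04 ± 0.18 in HD-homo cells (adjusted p = 0.000420), and HD-homo lay below HD-het cells by -0.60 ± 0.16 (adjusted p = 0.00520). Atg12 (chromosome 18, 46730144 to 46741580, GRCm38), the ubiquitin-like protein that ATG10 conjugates, was higher in both HD lines too. It stood at 23.6, 24.4 and 22.6 CPM in control, 35.98, 36.5 and 35.1 CPM in HD-het and 28.0, 26.8 and 29.6 CPM in HD-homo libraries, with log2 fold changes of 0.61 ± 0.065 (adjusted p = 1.07e-05) and 0.26 ± 0.065 (adjusted p = 0.00573). Its acceptor gene Atg5 moved the other way. Atg5 was 49.8, 48.2 and 47.0 CPM in control, 33.9, 35.7 and 36.3 CPM in HD-het and 41.2, 44.3 and 44.6 CPM in HD-homo libraries, a log2 fold change of -0.45 ± 0.061 in HD-het (adjusted p = 5.85e-05) and -0.15 ± 0.061 in HD-homo cells (adjusted p = 0.0461). The latter was lost under 12 of 17 alternatives, with an adjusted p of up to 0.155.

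Atg16l2 (chromosome 7, 101263034 to 101302251, GRCm38), the less studied relative of Atg16l1, was another gene on opposite sides of control in the HD lines. Levels were 15.2, 15.9 and 14.4 CPM in control, 21.7, 20.2 and 18.5 CPM in HD-het and 9.87, 11.7 and 9.07 CPM in HD-homo libraries. Every HD-homo library was below, and every HD-het library above, the control libraries. Its log2 fold change against control was 0.41 ± 0.10 in HD-het (adjusted p = 0.00432) and -0.57 ± 0.10 in HD-homo cells (adjusted p = 0.000721), and the HD lines differed by -0.98 ± 0.10 (adjusted p = 6.41e-06). Some of its exons overlap Fchsd2 on the other strand. Atg3 was higher by 0.22 ± 0.057 in both HD lines. Atg7 differed from control by 0.01 ± 0.075 in HD-het and 0.06 ± 0.075 in HD-homo cells, and Atg16l1 by 0.15 ± 0.074 and 0.02 ± 0.074, none past the threshold.

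Fusion genes held the largest rise in HD-homo cells. STX17, SNAP29 and VAMP8 are SNARE proteins that join the autophagosome to the lysosome, and EPG5, TECPR1 and PLEKHM1 tether the membranes. Epg5 (chromosome 18, 77938465 to 78035013, GRCm38) stood at 28.0, 26.7 and 26.9 CPM in control, 34.1, 35.7 and 31.8 CPM in HD-het and 74.2, 52.6 and 87.7 CPM in HD-homo libraries. All HD-homo libraries were above the rest, but they differed among themselves more than those of any other of the 36 genes in HD-homo cells (coefficient of variation 24.7%). HD-homo was 2.63-fold control (log2 1.39 ± 0.15, adjusted p = 1.01e-05) and 2.11-fold HD-het (1.08 ± 0.14, adjusted p = 4.33e-05). In HD-het against control the difference was 0.32 ± 0.15 with adjusted p = 0.0807, and it passed when the HD-homo libraries were left out of the fit (adjusted p = 0.00145).

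Vamp8 (chromosome 6, 72385223 to 72390703, GRCm38) was likewise higher in HD-homo cells. It stood at 33.1, 30.003 and 36.1 CPM in control, 28.1, 25.9 and 33.3 CPM in HD-het and 53.2, 53.9 and 50.2 CPM in HD-homo libraries. Control and HD-het libraries overlapped. The difference on the log2 scale was 0.67 ± 0.097 in HD-homo against control (adjusted p = 0.000129), 0.85 ± 0.097 against HD-het (adjusted p = 1.20e-05) and -0.18 ± 0.098 in HD-het against control (adjusted p = 0.121, or 0.0152 without HD-het replicate 3). Snap29 was higher in HD-homo cells than in control by 0.38 ± 0.080 and differed by 0.09 ± 0.081 in HD-het cells. Stx17 and Tecpr1 were higher in HD-het cells, by 0.25 ± 0.068 and 0.55 ± 0.10, and differed from control by 0.01 ± 0.068 and 0.13 ± 0.10 in HD-homo cells. Plekhm1 was lower in HD-homo cells by -0.33 ± 0.071 and differed by -0.01 ± 0.071 in HD-het cells. Between the HD lines, Epg5, Vamp8 and Snap29 were higher and Stx17, Tecpr1 and Plekhm1 lower in HD-homo cells, all past the threshold.

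**Figure D4:**
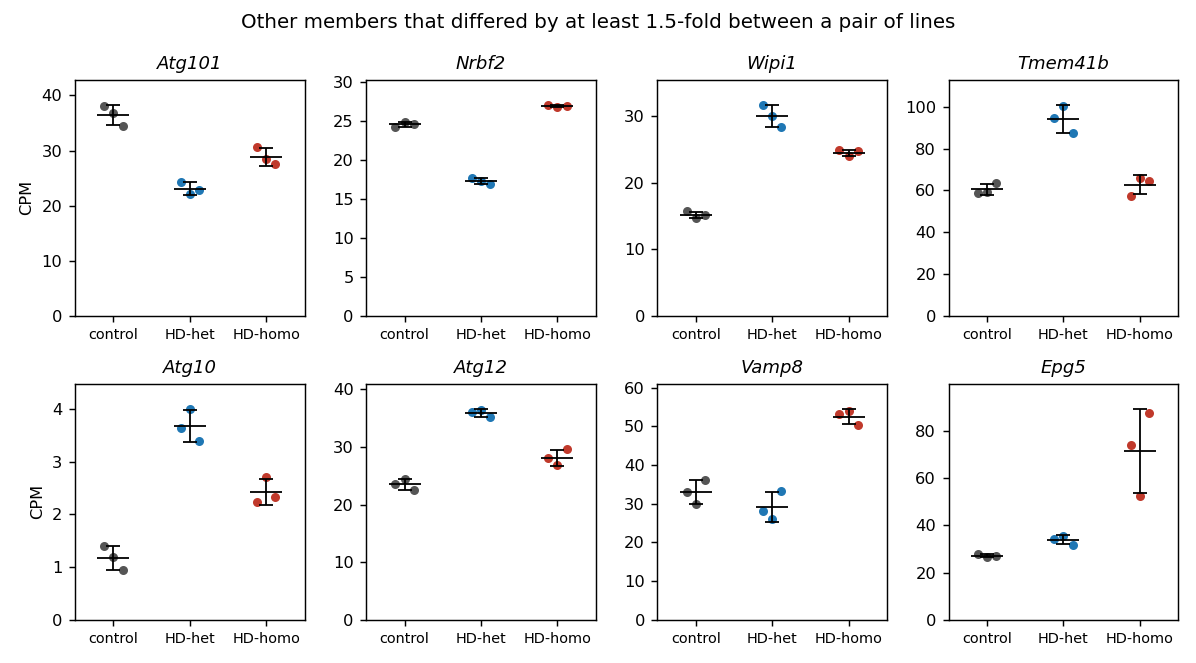
Level in CPM of the other 8 genes that passed with a fold of at least 1.5 in a comparison; points are libraries, bars are the mean and SD of 3 libraries, and axes start at 0. Epg5 and Vamp8 are highest in HD-homo cells, Wipi1, Tmem41b, Atg10 and Atg12 in HD-het cells, and Atg101 and Nrbf2 are lowest in HD-het cells.

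The balance within 5 pairs of related genes was measured as the log2 ratio of their counts in each library, which does not depend on library scaling. The exact permutation test of 3 against 3 libraries cannot give p below 0.10, so none of the 15 comparisons could pass. Wipi1/Wipi2 was -2.95 ± 0.040 (SD) in control, -1.81 ± 0.030 in HD-het and -2.12 ± 0.040 in HD-homo cells, a shift of 1.14 in HD-het and 0.82 in HD-homo cells against control (exact permutation p = 0.10 for each, two-sided, 0.115 after adjustment over 15 comparisons). Ulk1/Ulk2 went from 0.51 ± 0.022 in control to 0.29 ± 0.090 in HD-het and -0.08 ± 0.065 in HD-homo cells. Ulk1 counts thus exceeded Ulk2 counts in all 3 control libraries and were below them in all 3 HD-homo libraries. Per kb of transcript the HD-homo means were 7.13 ± 0.33 (SD) CPM for Ulk1 and 6.87 ± 0.45 CPM for Ulk2, so the change of sign holds for counts only. Atg16l1/Atg16l2 was 1.59 ± 0.029 in control, 1.34 ± 0.053 in HD-het and 2.19 ± 0.15 in HD-homo cells. Wdr45/Wdr45b was -2.92 ± 0.066, -2.12 ± 0.068 and -2.89 ± 0.11 in the same order, where control and HD-homo libraries overlapped (exact permutation p = 0.90). Atg2a/Atg2b was -0.38 ± 0.013, -0.68 ± 0.11 and -0.59 ± 0.19, with the HD lines overlapping each other.

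**Figure D5:**
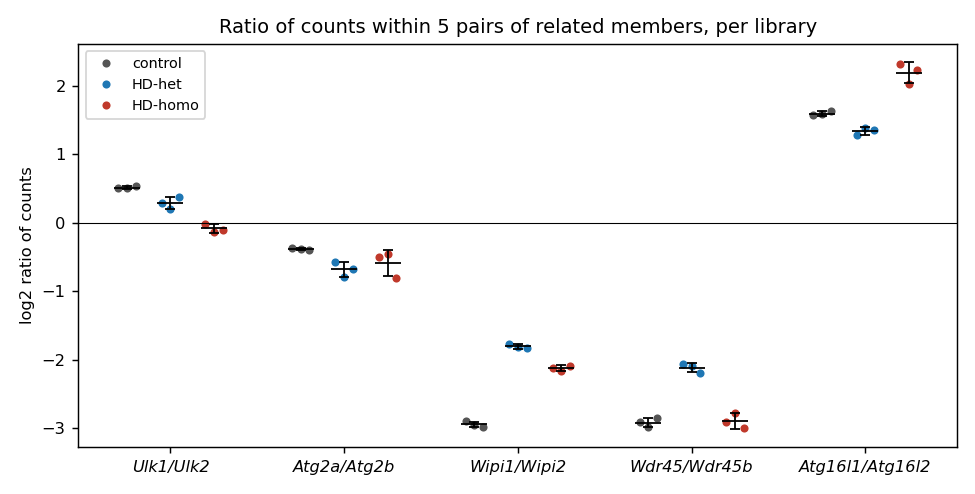
Log2 ratio of counts within 5 pairs of related genes in each library of control (grey), HD-het (blue) and HD-homo (red) cells; bars are the mean and SD of 3 libraries. Ulk1/Ulk2 falls below 0 in HD-homo cells, and both HD lines lie above control for Wipi1/Wipi2. The counts are not divided by transcript length.

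Genes that act before and after these steps were taken as 4 lists of 49 genes, all tested. Of the 9 LC3, GABARAP and ATG4 genes, the ubiquitin-like proteins on the autophagosome and their proteases, 4 were higher and none lower in HD-homo cells, and 7 were higher and 1 lower in HD-het cells against control. Map1lc3a was higher by 0.91 ± 0.071 and Gabarapl1 by 0.69 ± 0.060 in HD-homo cells. Of the 12 selective receptors 7 were higher and 3 lower in HD-homo cells, and 6 were higher and 1 lower in HD-het cells. Optn, a receptor for ubiquitin-tagged cargo, was higher by 1.34 ± 0.13 and the mitophagy receptor Bnip3 by 0.97 ± 0.13 in HD-homo cells. Retreg1 (-0.32 ± 0.12) and Sqstm1 (-0.26 ± 0.080) were lower there. In HD-het cells all Sqstm1 libraries instead lay above control (means of 383 CPM in control, 571 CPM in HD-het and 319 CPM in HD-homo cells). For Retreg1 the libraries overlapped, with 39.8, 40.1 and 39.1 CPM in control and 27.8, 39.8 and 27.4 CPM in HD-homo libraries. Of the 14 lysosome fusion genes 5 were higher and 1 lower in HD-homo cells, and 9 were higher and 3 lower in HD-het cells. Vps39 (0.48 ± 0.069) and Stx8 (0.40 ± 0.084) were higher and Rilp (-0.49 ± 0.14) lower in HD-homo cells. Of the 14 upstream kinases and transcription factors 5 were higher and 4 lower in HD-homo cells, and 1 was higher and 5 lower in HD-het cells. Mitf (1.38 ± 0.17) and Tfe3 (0.35 ± 0.062), relatives of Tfeb, were higher, and Prkaa2 (-1.53 ± 0.17), an AMPK catalytic subunit, and Zhx2 (-1.37 ± 0.20) lower in HD-homo cells. Tfeb itself differed from control by 0.11 ± 0.13 in HD-homo and 0.16 ± 0.13 in HD-het cells and did not pass. Read against the shares of all genes given above, the 29 of 49 that passed in HD-homo and 33 of 49 in HD-het cells were near the background.

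The 36 genes lie on 17 chromosomes, 6 of them on chromosome 11. Of the 36, 23 share no 50-base word of the longest coding transcript with another annotated gene. Besides Nrbf2, long shared stretches occur in Wdr45 (46.2%, with Gm45208), Atg9a (42.3%, chiefly with Gm29253), Tmem41b (15.9%, with Gm6223) and Rb1cc1 (8.48%, with Gm13961), and their counts are uncertain to that extent. Exons of 10 members overlap a gene on the other strand. The libraries mark strand, but the strand setting used for counting was not given in the sources used here, so reads of those partners may not be separated. Atg13, Vmp1, Atg3 and Atg12 each have a coding gene that starts within 1000 bases upstream on the other strand, namely Harbi1, Ptrh2, Slc35a5 and Ap3s1.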

How the data were processed

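Poly(A) RNA of 9 libraries (3 lines, 3 each) was sequenced, and the authors deposited a table of raw gene counts by symbol with no normalization. The submitters' processing notes name cutadapt, Bowtie 1.1.2, RSEM 1.3.0, DESeq2 and the builds GRCm38.p5 and mm10, without roles. If RSEM made the counts, they are rounded estimates. Of 36410 listed genes, 26 carry a date for a symbol, and 2 symbols occur on a repeated line.

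The analysis used edgeR 4.0.16 under R 4.3.3. After filterByExpr (minimum count 10) 13508 genes remained, which were normalised by TMM and fitted with 1 mean per line over all 9 libraries by the quasi-likelihood model. Adjusted p-values are Benjamini-Hochberg over all tested genes. CPM used TMM-scaled totals. Standard errors are the log2 fold change over the root of the F statistic. The steps were run on simulated data with few changed genes in HD-homo cells and none in HD-het cells. Far more genes passed in the real data, so that run does not check the rate of false calls here. Alternatives, DESeq2 1.42.0 included, appear in the closing section. Positions and lengths are from GENCODE M21 (GRCm38). RefSeq promoter windows are of GRCm38.p6.

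The members, the lists and the tests were chosen with earlier results of these data known. The step of membrane supply and expansion was added to the 4 steps of initiation, nucleation, conjugation and fusion. All members are named, those past the threshold with at least 1.5-fold in a comparison with every library's value, as are those that lay on opposite sides of control and, chosen after their values were seen, Becn1 and Atg5. From each related list up to 2 genes in each direction are named by size in HD-homo against control, and Tfeb was chosen after its values were seen. Libraries of a line varied with 2.38 (control replicates 1 and 2) to 44.9 (HD-homo replicates 2 and 3) times the variance of counting noise, so none was counted as a copy of another. This cannot show that they came from separate cultures.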

Additional observations from a re-analysis of the deposited data

Results flagged for a closer look

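Against control, 5 genes were higher in HD-het cells and lower in HD-homo cells, each past the threshold in both. Their choice also required a call between the HD lines in the same edgeR fit. The values of that comparison below therefore describe the size of the difference and add no further support. Of all 13508 tested genes, 8.18% showed this pattern past the threshold in all 3 comparisons. The opposite pattern, lower in HD-het and higher in HD-homo cells, held for 6.34% of all genes and 0 of the 36. The log2 fold change of HD-homo against HD-het cells was -0.58 ± 0.060 (SE) for Ulk1 (adjusted p = 5.53e-06) and -1.23 ± 0.15 for Rb1cc1 (adjusted p = 1.56e-05), both of the initiation complex. For Zfyve1 it was -1.33 ± 0.091 (adjusted p = 1.76e-07) and for Vmp1 -0.58 ± 0.057 (adjusted p = 3.27e-06), both of membrane supply. For Atg16l2 it was -0.98 ± 0.10 (adjusted p = 6.41e-06). For each of the 5 genes all 3 HD-homo libraries lay below all 3 HD-het libraries. The way the genes were chosen makes this likely, so it adds no support. Groups of 3 libraries were too small for a check of single outlying libraries.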

How the results depend on the processing

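Over the 36 genes, 3 comparisons and 17 alternatives (1836 results), 1745 kept their direction and side of the threshold, 55 lost a call, 9 gained one and 27 changed sign. The sign changes fell on results of 8 genes that had not passed in that comparison, with a log2 fold change of at most 0.049 in size in the fit reported. With library totals only, Uvrag between the HD lines became 0.011, Ambra1 in HD-homo against control 0.0086, Atg3 between the HD lines 0.026 and Atg7 in HD-het against control -0.0015. Ambra1 also became 0.0013 with at least 10 counts in every library, and Atg3 0.0031 with no filter. Leaving out each library in turn, the range of log2 fold changes crossed 0 in HD-homo against control for Uvrag (-0.016 to 0.14), Ambra1 (-0.025 to 0.013), Atg16l1 (-0.026 to 0.074) and Stx17 (-0.021 to 0.033), in HD-het against control for Atg7 (-0.015 to 0.062) and Plekhm1 (-0.072 to 0.026), and between the HD lines for Uvrag (-0.084 to 0.020), Wipi2 (-0.0040 to 0.046), Atg3 (-0.029 to 0.038) and Atg7 (-0.0067 to 0.071). The Wdr45/Wdr45b difference of HD-homo from control ranged from -0.037 to 0.074. Calls with at least 1.5-fold numbered 4 in HD-homo against control (4 higher, 0 lower), 7 in HD-het against control (6 higher, 1 lower) and 8 between the HD lines (3 higher, 5 lower). At an adjusted p under 0.01 the 12 genes lower in HD-homo cells became 6. The share of all genes under that rule was not counted, so it is unknown whether it fell alike. Without 1 library the lower genes numbered 7 (control replicate 1) to 12. Between 17 and 22 genes in all passed in HD-homo against control without 1 library, 22 to 25 in HD-het against control and 22 to 26 between the HD lines. The share of all genes that passed in either direction without 1 library was 49.9% to 59.0% in HD-homo against control. It was 57.6% to 67.4% in HD-het against control and 65.8% to 70.6% between the HD lines. Under the other scalings and filters, the fit of the 2 lines alone, thinning and DESeq2, no count of members moved by over 1.5 times.

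The same replicate numbers occur in each line, and the labels do not say that they are pairs. Deviations of same-numbered libraries correlated by 0.023 to 0.040 (HD-homo and control), 0.068 to 0.245 (HD-het and control) and 0.032 to 0.202 (the HD lines). The lowest value in each comparison was under 0.1, so the numbers were not taken as pairs, but pairing is not excluded. Of 6 libraries in each comparison 6, 5 and 4 correlated best with their own number, a hint from the data only. With a replicate block in the edgeR fit 22 members passed in HD-homo against control, 25 in HD-het against control and 25 between the HD lines. Of all genes 62.0%, 67.8% and 73.6% passed in the same order. Atg16l1 gained a call in HD-het against control and between the HD lines (adjusted p = 0.0343 and 0.0491).

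With the median in place of the longest transcript length, the control level per length of 23 of 36 genes moved by more than its SD, so the order of genes by level rests on the transcript chosen. None of the 36 genes had an older symbol also listed, so no listings were summed. The counts limit Atg10 most, at 28 to 45 control counts.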

Other observations

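In HD-homo cells the library with the highest Rb1cc1 level, replicate 2 at 113 CPM, was the one with the lowest Epg5 level, at 52.6 CPM. Replicate 1 had 72.8 CPM of Rb1cc1 and 74.2 CPM of Epg5, and replicate 3 had 97.1 and 87.7 CPM. The coefficient of variation over the 3 HD-homo libraries was 21.6% for Rb1cc1 and 24.7% for Epg5. In HD-het cells it was 7.76% and 5.68%. With 3 libraries no relation between them was tested.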
